A study of Saccharomyces cerevisiae with 4 samples.

Results

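The genes described here are 54 genes of Saccharomyces cerevisiae whose products build the small (40S) ribosomal subunit, from the small-subunit processome of the nucleolus to the late pre-40S particle. They are 54 of the 7126 features in the count files. Of them, 53 were found under their own name in the gene name column of the authors' deposited table, and DBP4 was found under its RefSeq synonym HCA4. The RNA was crosslinked to Mip6, a yeast RNA-binding protein, and sequenced by PAR-CLIP, a method that feeds cells 4-thiouracil so that long-wave ultraviolet light can link their RNA to a bound protein. The question addressed for these genes is how the reads on their mRNAs differed between cells kept at 30 °C and cells moved to 39 °C.

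All cells were of the strain Mip6-HTB, in which Mip6 carries a tag used for purification on nickel and streptavidin beads, and all were grown in uracil drop-out synthetic medium to which glucose, adenine, biotin and a set amount of uracil were added. Cells of the first group stayed at 30 °C and had 4-thiouracil for 45 min. For the heat-stressed group these were 25 min at 30 °C followed by 20 min at 39 °C. Both groups were irradiated at 365 nm for 15 min. At each temperature 1 library was split by strand into 2 samples, minus and plus, so these do not count as replicates. How many cultures or clones stand behind a library is not stated in the labels.

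Ribosome assembly starts while RNA polymerase I is still copying the ribosomal RNA. The UTP-A and UTP-B complexes and the U3 small nucleolar ribonucleoprotein fold the leading end of the transcript into the processome, in which helicases, a GTPase and nucleases reshape and cut it until a pre-40S particle is released to the cytoplasm. In growing yeast the mRNAs of these factors belong to the ribosome biogenesis regulon, which is known to be turned down for a time when cells meet heat or other stress.

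A gene's level below is the count of reads on its own strand, as CPM, that is, scaled to the sum of own-strand reads over all features whose systematic name gives a strand, and it was divided by length in kilobases wherever levels of different genes are compared. There were 10447922 own-strand reads at 30 °C and 6021128 at 39 °C. Each member had 855 to 8490 own-strand reads at 30 °C and 427 to 3821 at 39 °C, so all 54 passed the minimum of 20 reads over both libraries, as did 6162 features in all. The exact Poisson interval of a member's count had a half-width of 2.13% to 6.76% of the count at 30 °C and of 3.18% to 9.61% at 39 °C. A count of 0 would allow up to 0.287 CPM at 30 °C and 0.498 CPM at 39 °C. All intervals given are 95% intervals of counting error alone, and they may be too narrow where PCR copied a molecule several times. With 1 library per temperature, no difference could be set against a spread between replicates, and no p-value is given. All 15 genes of a list of heat shock chaperones were at least 1.5-fold higher at 39 °C, as were 12.9% of all tested features. Their median log2 ratio was 1.41, from SSA1 with 0.64 to BTN2 with 3.67. This list was chosen with earlier results of these data known, so it is no independent check. No input RNA or untagged strain was among the samples. In these bulk cultures, fewer cells holding an mRNA, less of that mRNA per cell and less crosslinking to Mip6 cannot be told apart. Uptake of 4-thiouracil into RNA, which in the heat-stressed group took place partly at 39 °C, cannot be separated from these either.

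As a group the 40S assembly mRNAs had slightly lower own-strand CPM at 39 °C, and their ratios kept close together. On the log2 scale, the ratio of CPM at 39 °C to CPM at 30 °C was below 0 for 45 of the 54 genes, against 48.6% of all tested features, and above 0 for 9. Its median was -0.23, with quartiles of -0.36 and -0.09, beside a median of 0.02 over all tested features with quartiles of -0.28 and 0.33. A single gene, DBP4, was at least 1.5-fold lower, where 10.2% of all tested features were, and none was at least 1.5-fold higher, where 12.9% were. None was past 2-fold in either direction, which 2.26% of tested features were downward and 4.82% upward. The other 53 genes lay within 1.5-fold. The counting interval lay wholly below 0 for 36 genes, against 34.8% of all tested features, and wholly above 0 for 3, against 35.6%. It held 0 for 15 genes. These shares also depend on how many reads a feature had. Closeness was not particular to the 54 genes, since 3 lists of related genes described below kept about as close. Quartiles were -0.53 and -0.28 for other 40S factors, -0.49 and -0.24 for 60S factors, and -0.86 and -0.57 for small-subunit ribosomal protein genes.

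Together the 54 genes took 1.31% of own-strand reads at 30 °C, with a Clopper-Pearson interval of 1.31 to 1.32, and 1.14% (1.13 to 1.15) after heat. The pooled log2 ratio of -0.21 (-0.22 to -0.19) was close to the median of the single genes. The 33 genes on the plus strand and the 21 on the minus strand come from separate files. Their median log2 ratios were -0.26 and -0.15, beside 0.01 for all plus-strand and 0.02 for all minus-strand features, so the members' median was below that of the features in each strand file.

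**Figure D1:**
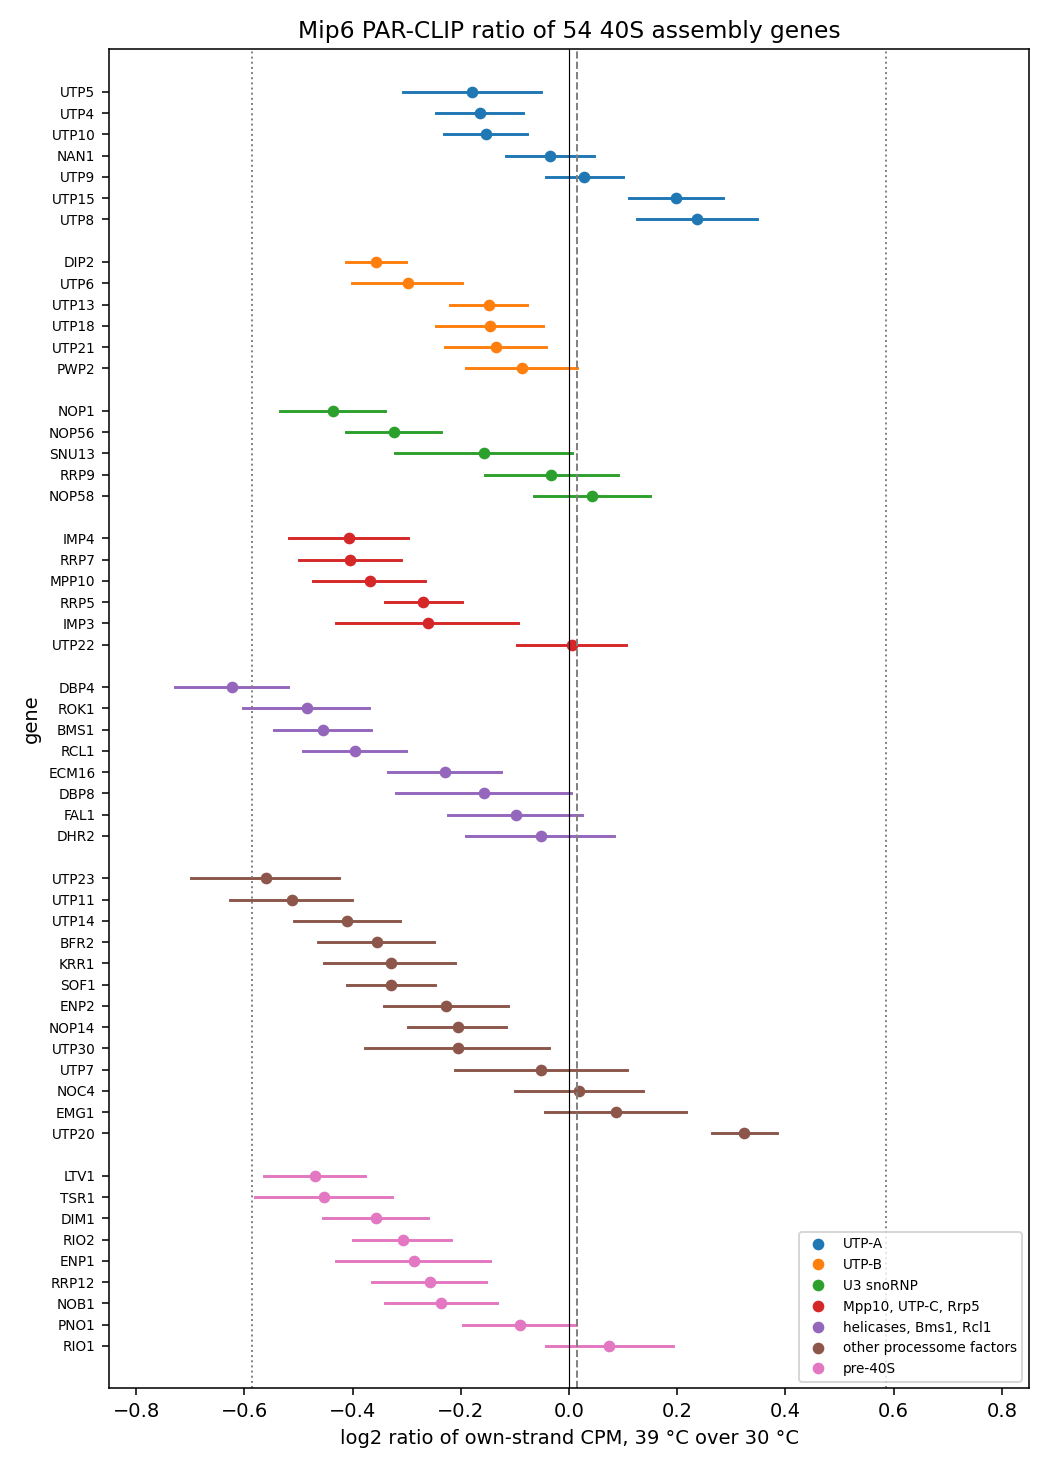
Log2 ratio of own-strand CPM at 39 °C over 30 °C for each of the 54 genes (x axis), grouped by role (colours, y axis). Points are ratios from 1 library per temperature, bars are 95% counting intervals, the dashed line is the median of all tested features and the dotted lines are 1.5-fold. Only DBP4, at -0.62, lies past the lower dotted line, and 9 genes lie above 0.

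The UTP-A complex, which binds the nascent ribosomal RNA first and is also called t-UTP for its link to transcription of the rDNA, stood nearest to no difference. Its 7 genes had a median log2 ratio of -0.03, and 3 of them were above 0. UTP8 (YGR128C, chromosome VII, 747950 to 750091, build R64), whose product has also been tied to tRNA export from the nucleus, had 1641 own-strand reads at 30 °C and 1114 at 39 °C, or 157.1 and 185.0 CPM. Its log2 ratio was 0.24 (0.13 to 0.35). UTP15 (YMR093W, chromosome XIII, 454015 to 455556) had 2723 and 1800 reads, or 260.6 and 298.9 CPM, with a log2 ratio of 0.20 (0.11 to 0.28). Both were higher at 39 °C beyond counting error.

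The third UTP-A gene above 0 was UTP9, with 417.1 and 425.3 CPM and a log2 ratio of 0.03 (-0.04 to 0.10). NAN1, which codes for a WD-repeat subunit, had -0.03 (-0.12 to 0.05). The intervals of both held 0. The other 3 genes, UTP10 with -0.15, UTP4 with -0.17 and UTP5 with -0.18, had intervals below 0. UTP10, which codes for a long protein of helical repeats, came to -0.07 when reads of both strands were summed.

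The UTP-B complex, a set of WD-repeat and helical-repeat proteins that joins after UTP-A, was lower at 39 °C in all 6 genes, with a median log2 ratio of -0.15. The ratios ran from -0.36 for DIP2 to -0.09 for PWP2, so they overlapped those of UTP-A. DIP2 (YLR129W, chromosome XII, 399657 to 402488) had the most reads of all 54 genes, 8490 at 30 °C and 3821 at 39 °C, or 812.6 and 634.6 CPM. Its interval of -0.41 to -0.30 did not reach those of UTP13 at -0.15 (-0.22 to -0.08), UTP18 at -0.15 (-0.25 to -0.05), UTP21 at -0.13 (-0.23 to -0.04) or PWP2 at -0.09 (-0.19 to 0.02). Subunits of one complex thus differed from each other by more than counting error. UTP6, a subunit with HAT repeats, had -0.30 (-0.40 to -0.20) and lay between them.

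The protein genes of the U3 particle, whose RNA base-pairs with the pre-ribosomal RNA to guide its cleavage, were spread from no difference to clearly lower. NOP1 (YDL014W, chromosome IV, 427364 to 428347), the fibrillarin gene that codes for the ribose methyltransferase of box C/D particles, had 2901 reads at 30 °C and 1235 at 39 °C, or 277.7 and 205.1 CPM. Its log2 ratio was -0.44 (-0.53 to -0.34). NOP56, one of the paired scaffold proteins of these particles, had -0.32 (-0.41 to -0.24), from 318.6 and 254.6 CPM. Its partner in the same scaffold, NOP58, had 180.7 and 186.2 CPM and a log2 ratio of 0.04 (-0.06 to 0.15). The intervals of NOP56 and NOP58 did not overlap, although their products sit side by side in each particle. SNU13, which binds the kink-turn of the RNA and is also a protein of the spliceosome, had -0.16 (-0.32 to 0.01), and the U3-specific protein gene RRP9 had -0.03 (-0.16 to 0.09).

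The group of Mpp10, its partners, UTP-C and Rrp5 had 5 of 6 genes below 0 and a median log2 ratio of -0.32. MPP10, which codes for a scaffold protein, had -0.37 (-0.47 to -0.27), and IMP4, whose product helps U3 pair with the pre-ribosomal RNA, had -0.41 (-0.52 to -0.30). IMP3, whose product has the same task, had -0.26 (-0.43 to -0.10). The 2 genes for UTP-C subunits given here parted from each other. RRP7 (YCL031C, chromosome III, 64675 to 65568) had 3012 reads at 30 °C and 1311 at 39 °C, or 288.3 and 217.7 CPM, and a log2 ratio of -0.40 (-0.50 to -0.31). UTP22 had 2206 and 1276 reads, or 211.1 and 211.9 CPM, and a log2 ratio of 0.01 (-0.10 to 0.11). The log2 ratio of RRP5, whose product acts in the assembly of both subunits, was -0.27 (-0.34 to -0.20).

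All 8 genes for RNA helicases, the GTPase Bms1 and its partner Rcl1, which remodel the pre-ribosomal RNA and its particle, were below 0, with a median log2 ratio of -0.31. DBP4 (YJL033W, chromosome X, 383837 to 386149), a DEAD-box helicase gene tied to release of the U14 snoRNA, was the lowest of the 54. It had 2770 reads at 30 °C and 1036 at 39 °C, or 265.1 and 172.1 CPM, a fold of 0.649 and a log2 ratio of -0.62 (-0.73 to -0.52). ROK1 (YGL171W, chromosome VII, 182390 to 184084), a DEAD-box helicase gene tied to release of snR30, came next in this group with 196.7 and 140.5 CPM and a log2 ratio of -0.48 (-0.60 to -0.37).

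BMS1 had a log2 ratio of -0.45 (-0.55 to -0.37) and RCL1 one of -0.40 (-0.49 to -0.30), so this pair of partners differed by less than counting error. ECM16, whose product Dhr1 unwinds U3 from the pre-ribosomal RNA, had -0.23 (-0.33 to -0.13). UTP14, which codes for the activator of Dhr1, had -0.41 (-0.51 to -0.31). The intervals of DBP8 with -0.16, FAL1 with -0.10 and DHR2 with -0.05 held 0.

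The 13 other processome factors, the largest of these groups, had the widest range of ratios, from -0.56 to 0.32. Their median was -0.23, with 10 genes below 0. Their quartiles of -0.36 and -0.05 were no wider apart than the -0.46 and -0.14 of the helicase group. UTP20 (YBL004W, chromosome II, 227636 to 235117), which codes for a very long helical-repeat protein that wraps the processome, had the highest ratio of the 54 genes. It had 5255 reads at 30 °C and 3791 at 39 °C, or 503.0 and 629.6 CPM, a fold of 1.25 and a log2 ratio of 0.32 (0.26 to 0.38). UTP20, UTP8 and UTP15 were the 3 genes whose counting interval lay above 0.

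At the other end stood 2 short genes. UTP23 (YOR004W, chromosome XV, 333592 to 334356), which codes for a PIN-domain protein tied to snR30, had 1562 and 610 reads, or 149.5 and 101.3 CPM, and a log2 ratio of -0.56 (-0.70 to -0.43). It stayed just short of 1.5-fold, which is 0.585 on the log2 scale. UTP11 (YKL099C, chromosome XI, 255720 to 256472) had 2214 and 894 reads, or 211.9 and 148.5 CPM, and a log2 ratio of -0.51 (-0.63 to -0.40).

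SOF1, a WD-repeat protein gene, and KRR1, a KH-domain protein gene, both had -0.33, and BFR2 had -0.36. NOP14 with -0.21 (-0.30 to -0.12) lay below NOC4, the gene of its binding partner, with 0.02 (-0.10 to 0.14), and these intervals did not overlap. EMG1, the methyltransferase gene for a modified pseudouridine of the 18S RNA, had a level of 122.5 CPM at 30 °C and a log2 ratio of 0.09 (-0.04 to 0.22). ENP2 had -0.23, UTP30 -0.21 and UTP7 -0.05, the last with an interval of -0.21 to 0.11.

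The genes of late, pre-40S maturation had a median log2 ratio of -0.29, with 8 of 9 below 0. LTV1 (YKL143W, chromosome XI, 176781 to 178172), whose product travels with the particle on export to the cytoplasm, had 3150 reads at 30 °C and 1311 at 39 °C, or 301.5 and 217.7 CPM. Its log2 ratio was -0.47 (-0.56 to -0.38), and that of TSR1, which codes for a GTPase-like protein, was -0.45 (-0.58 to -0.33). DIM1, the gene of the adenosine dimethyltransferase of the 18S RNA, had -0.36 (-0.46 to -0.26). ENP1 with -0.29, RRP12 with -0.26 and NOB1, the gene of the nuclease that makes the end of mature 18S RNA, with -0.24 were near the group's median.

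PNO1, whose product partners Nob1, had 204.3 and 191.8 CPM and a log2 ratio of -0.09 (-0.20 to 0.01). The 2 atypical kinase genes of this stage differed. RIO2 had 298.2 and 241.0 CPM with a log2 ratio of -0.31 (-0.40 to -0.22). RIO1 had 150.2 and 158.1 CPM with a log2 ratio of 0.07 (-0.04 to 0.19). The 2 intervals did not overlap.

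Per kilobase, the 54 genes were read somewhat more heavily than a typical feature. Their median level was 122.3 CPM per kilobase at 30 °C and 111.0 at 39 °C, beside 82.7 and 84.8 over all tested features. At 30 °C 42 of them lay above the median of all features, and at 39 °C 34 did. The highest at 30 °C was RRP7 with 322.5 CPM per kilobase, and DIP2 followed with 286.9, NOP1 with 282.2, UTP11 with 281.4 and DIM1 with 277.0. The lowest were UTP7 with 52.4, DHR2 with 53.1 and UTP22 with 56.9 CPM per kilobase. The highest level was 6.15 times the lowest at 30 °C and 5.06 times at 39 °C.

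The order of levels was much the same at both temperatures, with a Spearman correlation of 0.957 across the 54 genes and of 0.956 across all tested features, which share the same 2 libraries and are not independent replicates. UTP9 ranked 10 in level at 30 °C with 241.4 CPM per kilobase and 1 at 39 °C with 246.1. RRP7 was next at 39 °C with 243.5, and PNO1 followed with 232.5 CPM per kilobase. The counting intervals of these 3 levels overlap. In UTP-A the levels at 30 °C ran from 73.0 CPM per kilobase for UTP10 to 241.4 for UTP9, so subunits of one complex were not read at one level.

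**Figure D2:**
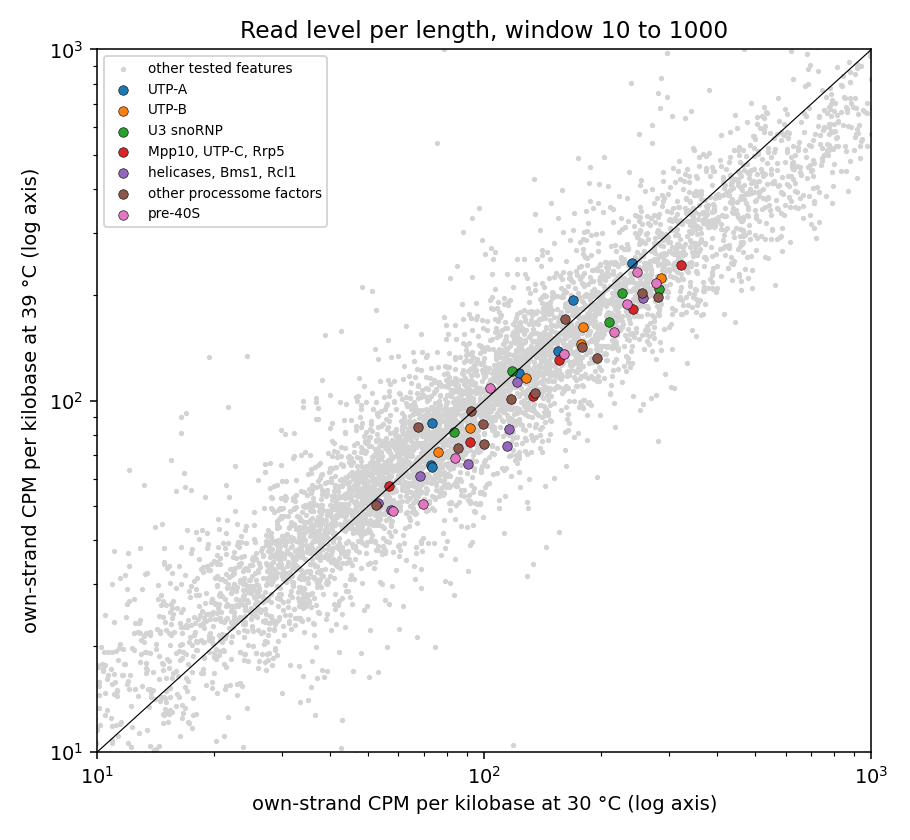
Own-strand CPM per kilobase at 30 °C (x axis) and 39 °C (y axis), both log axes, for the 54 genes (coloured by role) and the other tested features within the window (grey), from 1 library per temperature. The line marks equal levels. The 54 genes run from 52.4 to 322.5 at 30 °C, and 45 lie below the line.

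Features with a higher level had lower ratios in these libraries, so the 54 genes were also set beside features of like level. Of features with a mean over both temperatures of 60 to 100 CPM per kilobase, all 1199 had a median log2 ratio of 0.05 and the 18 members one of -0.19. From 100 to 200 the medians were -0.05 for all 1340 features and -0.21 for the 19 members. At 200 and above they were -0.22 for all 1343 features and -0.36 for the 12 members, and below 60 they were 0.19 for 2280 features and -0.05 for only 5 members. The members' median lay below that of all features in each of these classes. Against features within the members' own range of levels, an alternative added after the data were seen, the members' median differed by -0.21, beside -0.24 against all tested features.

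Other genes of ribosome assembly were also mostly lower at 39 °C. A list of 32 further factors of 40S assembly had a median log2 ratio of -0.38, with 30 genes below 0, against 48.6% of all tested features. At least 1.5-fold lower were 6 of them, or 18.8%, beside 10.2% of all tested features. These 6 were BUD21, with an interval of -1.11 to -0.89, FAF1 with -0.82, MRD1 with -0.79, the nucleolin-like protein gene NSR1 with -0.73, FYV7 with -0.68 and SLX9 with -0.61. BUD21, which codes for the processome protein Utp16, had 292.9 and 146.3 CPM, a larger difference than that of any of the 54. SRD1 with 0.34 (0.21 to 0.48) was the highest of this list.

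A list of 64 factors of 60S assembly had a median log2 ratio of -0.36, with 62 below 0. Of these factors 10, or 15.6%, were at least 1.5-fold lower, and ratios ran from MAK16 with -0.88 to URB2 with 0.31. The 56 genes for small-subunit ribosomal proteins were all below 0, with a median of -0.66. At least 1.5-fold lower were 40 of them, or 71.4%. The lowest was RPS0A with -1.42 and the highest RPS14B with -0.16. Ribosomal protein genes often come as near-identical pairs, between which the assignment of reads is uncertain. These lists also differ from the 54 genes in level and length. At 30 °C their median levels were 159.7 CPM per kilobase for the other 40S factors, 169.5 for the 60S factors and 953.5 for the ribosomal protein genes. Their median lengths were 946.5, 1431 and 432 bases in the same order, beside 1662 for the 54 genes. The comparison by level that follows does not match length. Of genes with a mean of 100 to 200 CPM per kilobase, the 19 members had a median log2 ratio of -0.21, the 13 other 40S factors one of -0.36 and the 26 60S factors one of -0.34. At 200 and above the medians were -0.36 for 12 members, -0.48 for 10 other 40S factors, -0.47 for 21 60S factors and -0.65 for 55 ribosomal protein genes. From 60 to 100 they were -0.19 for 18 members, -0.39 for 7 other 40S factors and -0.17 for 9 60S factors, so there the members and the 60S factors were much alike. Below 60 they were -0.05 for 5 members, -0.27 for 2 other 40S factors and -0.27 for 8 60S factors. The difference between the 54 genes and these lists cannot be tested with 1 library per temperature, and the ranges of all 4 overlap.

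**Figure D3:**
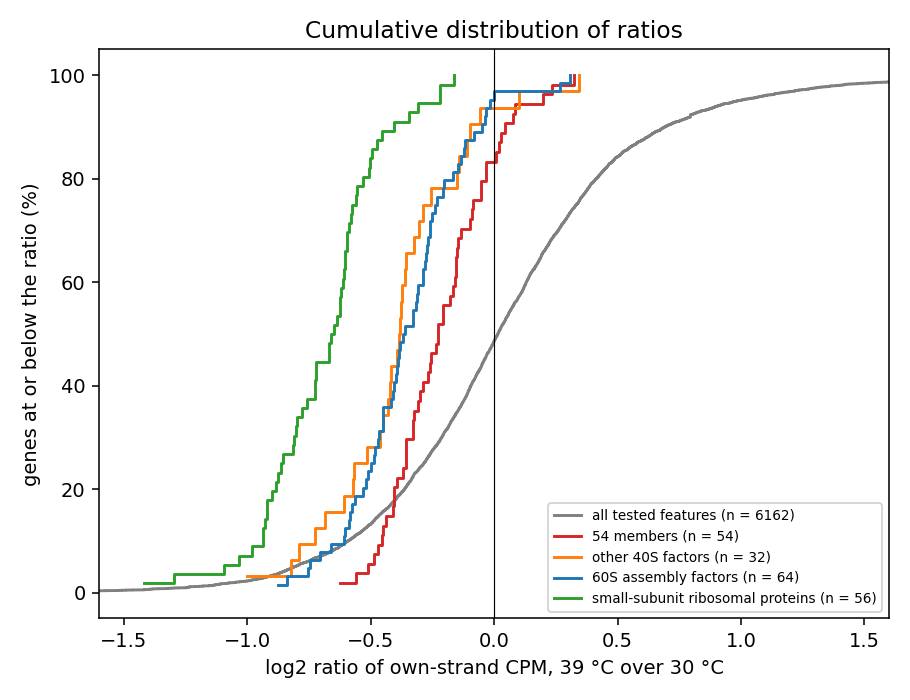
Cumulative share of genes (y axis, percent) at or below each log2 ratio of own-strand CPM, 39 °C over 30 °C (x axis), for the 54 genes, 3 lists of related genes and all tested features. The 54 genes rise steeply around their median of -0.23, to the right of the other 40S factors and the 60S factors and far to the right of the small-subunit ribosomal protein genes at -0.66.

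In the authors' deposited table all 54 genes were called flat, where 8.17% of the features with a value were called up or down. The authors' deposited table gives a log2 ratio that ran against the own-strand ratio, with a Pearson correlation of -0.95 across 6162 features, so a positive value there stands for fewer reads at 39 °C. All 354 features called down there had a positive value, and none of the 211 called up did. The deposited ratio was positive for 45 and negative for 9 of the genes, and in each of the 54 its sign was the reverse of the own-strand ratio. Both ratios describe the same 2 libraries, so these signs are not a separate check. The highest probability of a difference among the 54 genes in the authors' deposited table was 0.876 for UTP23, below the 0.9 that the called features exceed.

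Reads of the strand opposite the gene were few on most of these genes. Their median share was 4.12% at 30 °C and 6.06% at 39 °C, beside 6.01% and 8.08% over all tested features, and it was under 10% at both temperatures for 46 of the 54. At 39 °C the share was higher for 53 genes, all but ENP2 with 4.75% and 4.58%, while over all tested features it was higher for 80.0%. Over all features with a strand in their name, reads of the other strand made up 8.62% at 30 °C and 11.4% at 39 °C. The part of this shift in the genes' own-strand ratios was not tested. With both strands summed, the members' median log2 ratio was -0.23 as well, but that setting also scales to both strand files. With that same scaling, own-strand reads alone had a median of -0.28.

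The shift in other-strand share was largest on NOC4, with 153 of its reads on the other strand at 30 °C and 212 at 39 °C, or 8.74% (7.46 to 10.2) and 18.5% (16.3 to 20.9). UTP10 went from 8.86% (8.04 to 9.74) to 16.7% (15.2 to 18.2) and ECM16, the Dhr1 gene, from 9.89% (8.75 to 11.1) to 17.3% (15.3 to 19.4). UTP18 had 6.07% and 12.7%, and EMG1 9.92% and 15.2%. On each of these 5 genes own-strand reads were still the large majority at 39 °C. No member overlapped another gene in the RefSeq table.

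**Figure D4:**
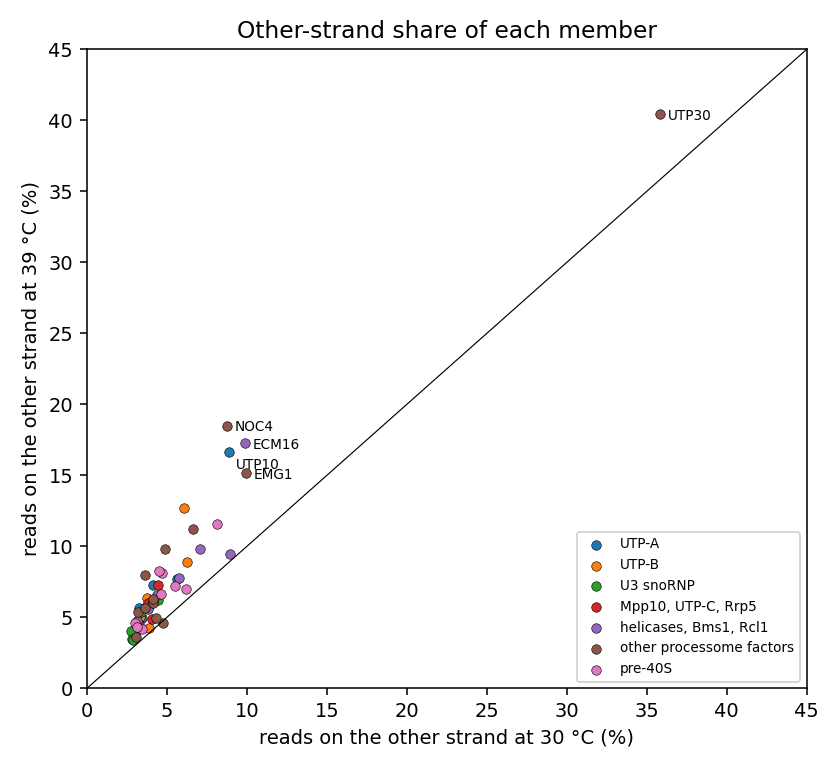
Share of reads on the strand opposite the gene at 30 °C (x axis) and 39 °C (y axis), in percent of the gene's reads on both strands, for the 54 genes coloured by role. The line marks equal shares. UTP30 stands apart at 35.8% and 40.4%, and all genes but ENP2 lie above the line.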

How the data were processed

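Per the submitters' processing notes, reads were aligned with Bowtie 1.1.1 and counted with HTSeq on sacCer3 and R64. Filters on mismatches, strandedness of counting and duplicate removal were not given in the sources used here. Raw counts, unnormalized whole numbers, stand in the deposited files of each sample. Their 5 HTSeq summary rows were left out of totals: reads in no feature made up 22.3% to 24.7% and ambiguous reads 3.92% to 13.3% of a file. The authors' deposited table gave gene names, lengths, a log2 ratio, and a probability and ranking, which are scores and not p-values. Its 2 columns of values per library match no label and were not used.

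Of the features, 6685 have a systematic name that gives their strand. The plus-strand file was used for W and the minus-strand file for C names. The log2 ratio was taken after adding 0.5 to each count, and features with at least 20 own-strand reads over both libraries were kept. Ratio intervals are exact conditional binomial intervals at 95%, and shares have Clopper-Pearson intervals. A gene was called past 1.5-fold or 2-fold by its ratio alone. Coordinates are those of the RefSeq table of assembly R64, and the lengths of all 54 genes are equal in both tables. No genome or sequence table was used here, so the planned search for promoter motifs was not run and no sequence is shown. The members and lists were chosen with earlier results of these data known. Genes were named by a rule: all 54 members, other 40S factors past 1.5-fold, and the highest and lowest of each list. The other regulators of transcription, chromosomal neighbours and LAS1 in the closing section were named outside it, after their values were seen. Ratios and intervals were first tested on simulated counts. Alternatives used edgeR 4.0.16 (TMM) and DESeq2 1.42.0 size factors, with Python 3.11.15 and SciPy 1.17.1 for the rest.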

Additional observations from a re-analysis of the deposited data

Results flagged for a closer look

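UTP30, which codes for a processome protein of the ribosomal protein L1 family, was singled out by reads outside the own-strand measure. Of its reads, 477 lay on the other strand at 30 °C and 290 at 39 °C, against 855 and 427 on its own strand. That is a share of 35.8% (Clopper-Pearson interval 33.2 to 38.5) at 30 °C and 40.4% (36.8 to 44.1) at 39 °C. It was the only one of the 54 genes with 20% or more of its reads on the other strand, a share that 25.3% of all tested features reached. The nearest gene of the RefSeq table with a systematic name on the opposite strand is LAS1, 3447 bases away on the 3' side.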

How the results depend on the processing

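No paired analysis was possible because each temperature has 1 library. The members' median log2 ratio stayed below 0 in all settings run, from -0.28 when scaled to both strand files to -0.15 with minus-strand genes alone. Against the tested features it differed by -0.27 with plus-strand genes alone and by -0.17 with minus-strand genes alone. The count of genes at least 1.5-fold lower was 1. It became 2, DBP4 and UTP23, with both strands summed, with scaling to the sum of both strand files or to the total of each strand file, and with TMM factors. UTP23 lies just inside 1.5-fold at -0.56, so a small shift of scale carries it across. It was 0 with minus-strand genes alone and 0 without DBP4, an alternative added after the data were seen, since both leave DBP4 out. No setting put a gene past 1.5-fold higher or past 2-fold. Of 324 single-gene values under the 6 settings that can change them, 323 moved by less than the half-width of the gene's counting interval, and the other was UTP10 with both strands summed. In that setting NOC4 moved further than UTP10, from 0.02 to 0.13, but its counting interval is wider. The sign changed in 13 of the 324 values, from above to below 0. These belonged to 4 genes, UTP9, NOP58, UTP22 and NOC4, whose main ratios were at most 0.0433. The number of genes below 0 thus ran from 45 to 49 over these settings. Most of these settings rescale all genes nearly alike, so they say little on single genes. The counting intervals of 15 genes held 0, and no value could be checked in a second library or against input RNA.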

Other observations

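A short list of 5 regulators of ribosome biogenesis transcription had log2 ratios slightly above 0, with a median of 0.16. All 5 had a mean level under 60 CPM per kilobase, a class in which all tested features had a median of 0.19, so the list lay close to features of its level. SFP1, which codes for an activator of these genes, had 94.4 and 105.5 CPM at 30 and 39 °C and a log2 ratio of 0.16 (0.01 to 0.31). The repressor genes TOD6 with 0.20 (-0.06 to 0.45), DOT6 with 0.16 (-0.02 to 0.35) and STB3 with 0.04 (-0.16 to 0.23) and the kinase gene SCH9 with 0.11 (-0.05 to 0.27) had intervals that held 0. Each was within 1.5-fold. UTP20, UTP8 and UTP15 of the 54 genes had higher ratios than any of them, UTP15 only just, with 0.198 beside 0.196 for TOD6.

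The 54 genes lie on 13 of the 16 nuclear chromosomes. Of them, 4 have a direct neighbour that is also a listed assembly gene, or 7.41%, beside 4.95% of all 6021 protein-coding genes of the RefSeq table. DBP8 lies beside NMD3, UTP9 beside RIX1, UTP13 beside RSA3 and NOC4 beside RRP15. In each of these pairs the 60S gene had the lower log2 ratio, such as -0.37 for NMD3 beside -0.16 for DBP8, and -0.33 for RRP15 beside 0.02 for NOC4. However, the whole 60S list had a median of -0.36, and these 4 members all lay above the members' median of -0.23. The pairs therefore say little about neighbours.

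By length, the 12 members under 1000 bases had a median log2 ratio of -0.34 and those of 1000 to 2000 bases one of -0.21. The 13 members of 2000 to 3000 bases had -0.17 and the 7 longer ones -0.23. Over all tested features the medians in the same classes were -0.10, 0.05, 0.15 and 0.13.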
